A study of Mus musculus with 10 samples.

Results

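The genes described here are 40 genes of ribosome biogenesis, 39 factors that make and assemble ribosomes plus Myc, followed through 48 h of LPS in CD117+ splenocytes. They were taken as a named list, drawn up with earlier results of these data known. Each is represented by the brightest probe set that carries its symbol alone (38 genes) or, for Fbl and Npm1, the brightest that lists it together with other symbols. They are 40 of 27707 genes on the array and 40 of the 12323 genes that passed a filter on low intensity and were tested. The cells were spleen cells positively selected for CD117, the KIT receptor, from male C57BL/6 mice aged 9 to 12 weeks, 5 wild-type (WT) animals and 5 animals of a RasGRP4-null line that was made on that strain by homologous recombination. RasGRP4 is an exchange factor that activates Ras proteins. RNA was taken from untreated cells (0 h) and from cells kept for 12, 24, 36 or 48 h in 1 µg/ml LPS, and each of the 10 combinations was measured on 1 Affymetrix mouse gene array. No condition was replicated, it is not stated whether the cells of the 5 mice of a genotype were pooled, and no array analysed here came from cells kept equally long in medium alone, so time in culture and LPS cannot be told apart. For 3 RasGRP4-null arrays 1 label names an earlier time than their titles; the times used here are those of the titles and of the data columns. The description of the design also lists 6 h and not 36 h, so the time of the arrays called 36 h here rests on their titles and the study's methods.

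Ribosome biogenesis begins in the nucleolus, where RNA polymerase I copies the ribosomal DNA into 1 long precursor RNA. Small nucleolar ribonucleoproteins (snoRNPs) modify that RNA at sites found by base-pairing, and successive sets of assembly factors fold and cut it into the small and the large ribosomal subunit. The pathway is switched on when lymphocytes and other resting cells enter growth, and the transcription factor MYC, which binds the E-box CACGTG together with its partner MAX, is a well-known activator of its genes.

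The promoters of these genes were searched for that E-box because MYC is among the members and many of the other 39 are known as its targets. RefSeq promoter windows (assembly GRCm38.p6, 250 bases before to 50 after the start of transcription) matched 33 of the 40 members. The letters CACGTG, which read the same on both strands, were present in at least 1 window of 8 of these 33 genes (24.2%), against 8.09% of the 27025 genes in that table. In 3 of the 8 the motif lay before the start. The 120 bases before the start of these genes are shown for that reason, 5′ to 3′ in the direction of transcription, with the E-box in capitals.
Nop2, chr6:125131763-125131882, plus strand: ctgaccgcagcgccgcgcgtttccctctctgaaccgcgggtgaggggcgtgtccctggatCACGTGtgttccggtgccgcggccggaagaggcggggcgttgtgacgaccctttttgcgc
Rrn3, chr16:13780579-13780698, plus strand: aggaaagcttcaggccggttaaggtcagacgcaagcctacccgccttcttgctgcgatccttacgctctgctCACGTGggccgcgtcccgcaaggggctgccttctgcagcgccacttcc
Utp18, chr11:93885767-93885886, minus strand: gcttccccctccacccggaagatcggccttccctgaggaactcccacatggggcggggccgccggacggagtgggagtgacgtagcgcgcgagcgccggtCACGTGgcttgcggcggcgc
Counting the base before the start as -1, the motif began at -60 in Nop2, at -48 in Rrn3 and at -20 in Utp18, and Rrn3 held another copy at -215. In the other 5 genes it lay within the first 50 bases of the transcript, and short windows around it are shown for comparison.
Pes1, chr11:3963967-3963992, plus strand: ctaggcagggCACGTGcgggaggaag
Wdr43, chr17:71616222-71616247, plus strand: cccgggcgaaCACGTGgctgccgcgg
Ltv1, chr10:13193094-13193119, minus strand: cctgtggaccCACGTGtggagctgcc
Utp20, chr10:88826765-88826787, minus strand: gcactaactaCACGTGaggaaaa
Mybbp1a, chr11:72441357-72441376, plus strand: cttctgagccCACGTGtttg
A match of these letters is a description of the window and not a measured binding site. The 8 genes with the motif changed at 12 h of LPS by a median of 1.38 on the log2 scale (0.90 to 2.56), and the 25 genes with a window but no match by a median of 1.77 (1.02 to 2.35), a range that lies within that of the former.

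Intensities are PLIER values, the summary of a probe set's brightness that the array software gives, and tests were run on log2(PLIER value + 16), a scale that understates the change of dim genes. An array's background was set at the level that 95% of its 1122 probe sets for olfactory receptors did not exceed, and it ranged from 29.1 to 38.3. Of the 40 members, 37 were above it on all 10 arrays. Kit, which encodes CD117, was above background on every array (133 to 334), and Rasgrp4 was above background in the untreated WT cells alone (86.4). The choice of scale mattered for every comparison with 0 h. Gapdh, by which the authors scaled their arrays, had PLIER values of 2227 to 5282, lowest on both 0 h arrays, so that the scaling factors were 2.24 and 2.41 at 0 h and 1.00 to 1.31 afterwards. The median change of all genes tested from 0 h to the mean of the LPS arrays was 0.26 on the PLIER values, 0.17 relative to Actb, 0.13 after quantile normalization and -0.71 on the GAPDH-normalized values. The Gapdh probe set is annotated with 33 symbols.

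Nearly all of the ribosome biogenesis factors were higher after LPS than in untreated cells on the PLIER values. Against 0 h, the average over 12 to 48 h of LPS was higher for 38 of the 40 genes and lower for 1, Myc, with a median change of 1.11, while 48% of all genes tested were called higher and 21.3% lower (limma, Benjamini-Hochberg adjusted p under 0.05 over 12323 genes). Relative to Actb the same counts were 38 and 1, against 40.4% and 23.8% of all genes. After quantile normalization they were 36 and 1, against 40.5% and 26.9%. On the GAPDH-normalized values, however, they were 17 and 10, where 8.37% of all genes were called higher and 69.3% lower. The median of the members stood 0.85 above that of all genes on the PLIER values, 0.86 relative to Actb, 0.87 after quantile normalization and 0.92 on the GAPDH-normalized values, and 38 or 39 of the 40 lay above the median of all genes on each of these scales. Every LPS array was brighter than both 0 h arrays for 34 members (41.4% of all genes). The exceptions were Myc, Fbl, Rrp9, Nhp2, Gnl3 and Utp18. Polr1b, Polr1e, Tbl3, Gar1, Rrp12 and Rrs1 were below 50, the limit of the filter, on both 0 h arrays. Noc4l, Bysl and Rrp9 reached 50 on 1 untreated array alone, and the filter asked for 2 arrays. All of these genes were tested only because of their LPS arrays, so their calls are no support for the rise. Without a filter 38 members were called higher and 1 lower, against 25.3% and 15.6% of all genes. With any 1 of the 10 arrays left out, 36 to 39 members were called higher (38.5% to 48.2% of all genes). Leaving out 1 array at a time cannot check the uncertain time labels, which concern several arrays together. With 1 array each, the genotypes serve as replicates around a shared time course in these fits. The methods name a paired t-test for parametric data, without saying that it was used for the arrays. Paired here by genotype, it rested on 2 pairs and called 0 of all 12323 genes after adjustment, so none of the 40. It cannot tell the members from other genes, although 19 members had an unadjusted p under 0.05 in it.

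The heat map of all members shows a sharp rise at 12 h that then decayed. At 12 h against 0 h 39 of the 40 genes were called higher and 0 lower, against 41.8% and 19.7% of all genes, with a median of 1.68. At that time 26 were called higher and 1 lower on the GAPDH-normalized values (8.33% and 61.4% of all genes), with a median of 0.78. The ratio of the PLIER values at 12 h and 0 h ran in the 39 factors from 1.82 to 13.2 in WT cells (median 3.91, the highest being Polr1b with its 0 h value below background) and from 1.62 to 5.62 in RasGRP4-null cells (median 3.14). The median change of the 40 then declined to 1.32 at 24 h, when 39 were called higher and 1 lower (39.2% and 19.9% of all genes), to 0.84 at 36 h with 33 higher and 1 lower (43.4% and 17.9%), and to 0.66 at 48 h with 28 higher and 1 lower (43.3% and 17.8%). On the GAPDH-normalized values the medians at 36 and 48 h had turned to -0.17 and -0.23, against -0.74 and -0.66 for all genes. In WT cells 39 members had their highest value at 12 h, and Myc at 0 h. In RasGRP4-null cells 32 were highest at 12 h, 7 at 24 h (Polr1b, Nop56, Dkc1, Utp15, Noc4l, Bysl and Wdr74) and Nob1 at 36 h. These times depend on the scale, since on the GAPDH-normalized values 34 members in WT and 36 in RasGRP4-null cells were highest at 12 h, and the other 6 and 4 at 0 h.

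**Figure D1:**
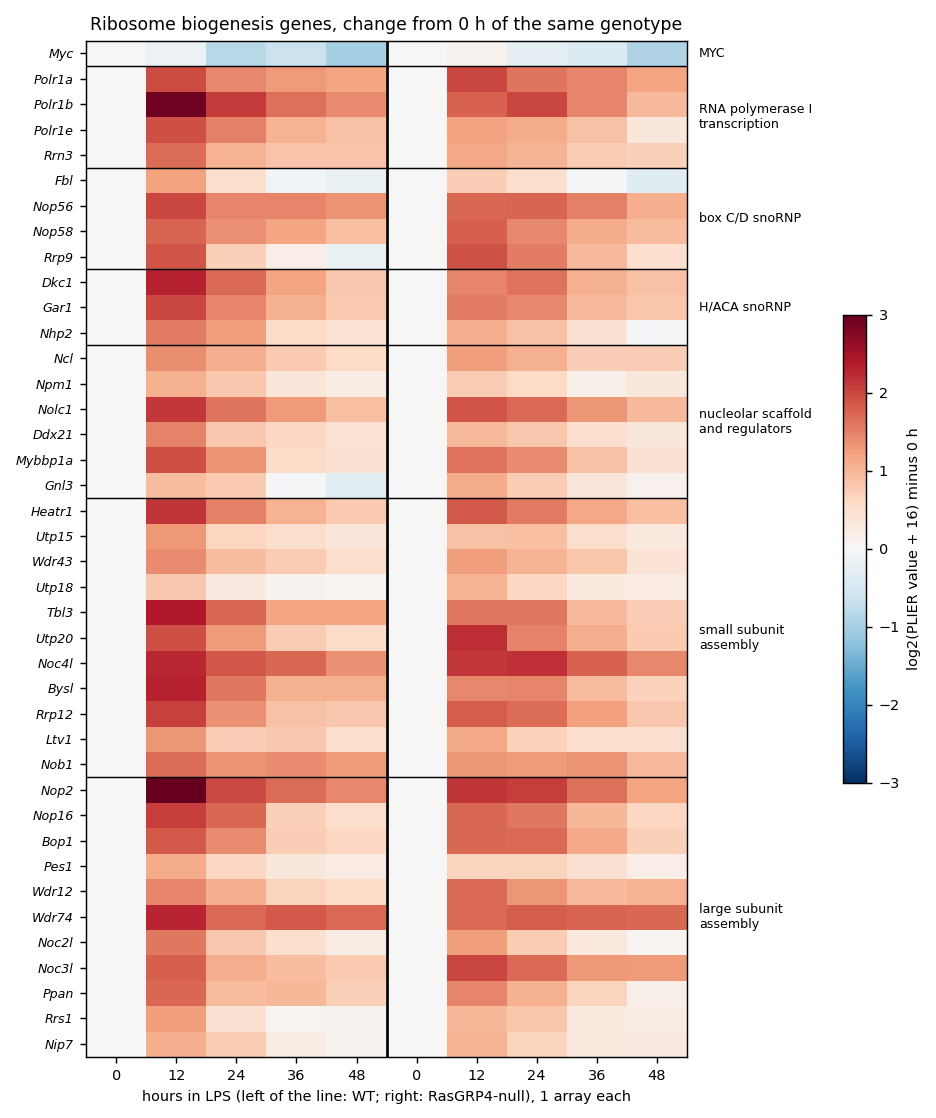
Change of the 40 genes from 0 h of the same genotype on the scale log2(PLIER value + 16), 1 column per array (hours in LPS; WT left, RasGRP4-null right) and 1 row per gene, grouped by role. The 12 h columns are the reddest for most genes and Myc is the 1 row that is blue at 24 h in both genotypes. On the GAPDH-normalized values the median of the 40 was below 0 at 36 and 48 h, as was that of all genes (-0.74 and -0.66).

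Myc went against the factors. Its PLIER values at 0, 12, 24, 36 and 48 h were 1061, 938, 586, 674 and 522 in WT cells and 918, 983, 744, 681 and 487 in RasGRP4-null cells. Untreated and 12 h cells were alike in range, and all 6 arrays from 24 h on lay below all 4 of them. Myc did not pass the test at 12 h on the PLIER values (log2 change -0.04, standard error 0.15, adjusted p = 0.833), although it was called lower there on the GAPDH-normalized values (-1.05), and it fell at 48 h (log2 change -0.95, standard error 0.15, adjusted p = 0.000287), and its average over 12 to 48 h was below that at 0 h (log2 change -0.52, standard error 0.12, adjusted p = 0.00228). That last change was -1.58 on the GAPDH-normalized values, and on the PLIER values it ranged from -0.66 to -0.38 with each array left out, losing its call without the WT array of 0 h.

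Of the RNA polymerase I genes, all 4 rose, although Polr1b and Polr1e passed the filter only through their LPS arrays. Polr1a encodes the largest catalytic subunit, Polr1b the second-largest, Polr1e a further subunit, and Rrn3 the factor that brings the polymerase to the ribosomal promoter. Polr1b had the largest fitted change of the group, with PLIER values of 18.5, 245, 131, 91.7 and 76.6 in WT cells and 29.9, 142, 169, 110.4 and 74.1 in RasGRP4-null cells. Both of its 0 h values were at or below background, so that its rank in the group rests on values that were not measured and the rise at 12 h was at least 5.39-fold over the background level (log2 change 2.35, standard error 0.23, adjusted p = 1.03e-05). Rrn3 had the smallest change, with values of 117, 413, 258, 226 and 226 in WT cells and 121, 290.1, 261, 217 and 210.4 in RasGRP4-null cells, and every LPS array was above both 0 h arrays (log2 change 1.42, standard error 0.15, adjusted p = 1.72e-05 at 12 h; 1.01 over all LPS times). Polr1a rose from 109 to 467 in WT and from 109 to 485 in RasGRP4-null cells at 12 h, a change that was nearly identical in both genotypes (log2 change 1.98, standard error 0.13, adjusted p = 4.16e-07). Polr1e was below background on the WT array of 0 h and reached 129 and 99.1 at 12 h. These 4 genes kept a positive change over the LPS times on the GAPDH-normalized values, with a median of 0.46.

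The core proteins of the box C/D snoRNPs, which methylate ribosomal RNA on the ribose, moved unequally. Nop56 and Nop58 are the paired scaffold proteins, Fbl is the methyltransferase fibrillarin, and Rrp9 belongs to the U3 snoRNP that guides early cleavage. Nop56 had PLIER values of 448, 1852, 1264, 1269.8 and 1161 in WT cells and 449, 1519.7, 1534, 1307 and 976 in RasGRP4-null cells, all LPS arrays more than 2-fold above both 0 h arrays (log2 change 1.54, standard error 0.12, adjusted p = 1.32e-06). Nop58 followed a like course between 397 at 0 h and 1431 at 12 h. Fbl, whose probe set also lists Gm5812 and LOC100044829, was the 1 factor that did not pass over the LPS times (log2 change 0.28, standard error 0.12, adjusted p = 0.0555, or -0.76 on the GAPDH-normalized values). Its values were 348, 817, 511, 326 and 296 in WT cells and 343, 579.6, 486, 330.2 and 262 in RasGRP4-null cells. It was high at 12 and 24 h and below its 0 h level at 36 and 48 h, and against 0 h it was called higher at 12 h (log2 change 0.96, standard error 0.15, adjusted p = 0.000229, or -0.03 on the GAPDH-normalized values) and at 24 h. Rrp9 also returned close to its untreated level, from 311 and 206 at 12 h to 60.9 and 67.8 at 48 h, against 72.3 and 43 at 0 h.

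Nop56 has 3 further probe sets, and these fell: 1 with its symbol alone went from 2214 and 2724 at 0 h to 73.2 to 179 after LPS, another from 700.2 and 671 to 189 to 293, and the 1 that also lists the small nucleolar RNA Snord57 from 2286 and 2087 to 846 to 1635. The introns of Nop56 are known to carry small nucleolar RNAs. Gnl3 and Ppan each have 1 further probe set that fell as well, the Gnl3 one also listing Snord19. What these probe sets detect was not tested, and the values above and below are those of the probe set chosen for brightness. Averaging the probe sets of Nop56 gave -1.40 in place of 1.54 over the LPS times.

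All 3 H/ACA snoRNP proteins, which serve the conversion of uridine to pseudouridine, rose at 12 h. Dkc1 encodes dyskerin, the pseudouridine synthase, and had the largest change over the LPS times, with PLIER values of 245, 1288, 829.5, 579 and 440.1 in WT cells and 276, 789, 882, 597 and 522 in RasGRP4-null cells (log2 change 1.38, standard error 0.16, adjusted p = 2.10e-05). The WT array of 12 h stood out, 1288 against 789 in RasGRP4-null cells, and by 24 h the genotypes were close. Nhp2, a small core protein, had the smallest change (log2 change 0.77, standard error 0.12, adjusted p = 0.000182, or -0.24 on the GAPDH-normalized values). Its values were 176, 550.3, 439, 268 and 241 in WT cells and 239, 529, 456, 336 and 229.8 in RasGRP4-null cells, so that the RasGRP4-null cells were back below their untreated level at 48 h. Gar1, a further core protein, lay between them (1.26).

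Among the 6 nucleolar scaffold proteins and regulators all were called higher over the LPS times (48% of all genes). Their median of 0.85, however, became -0.20 on the GAPDH-normalized values, against -0.71 for all genes. Nolc1, a chaperone of snoRNPs, changed most, with PLIER values of 203, 934, 648, 511 and 393 in WT cells and 213, 832, 727, 558 and 434 in RasGRP4-null cells (log2 change 1.47, standard error 0.11, adjusted p = 5.88e-07, or 0.46 on the GAPDH-normalized values). The values fell at each step after 12 h in both genotypes and stayed above 0 h throughout. Gnl3, the nucleolar GTPase nucleostemin, changed least (log2 change 0.46, standard error 0.12, adjusted p = 0.00554, or -0.58 on the GAPDH-normalized values). Its values were 396, 764, 698, 389 and 313 in WT cells and 350.4, 776, 601, 455 and 385 in RasGRP4-null cells, near the untreated level at 36 and 48 h. Ncl, nucleolin, rose from 836 and 821 to 2218 and 1971 at 12 h, and Mybbp1a, a nucleolar MYB-binding protein, reached 1425 and 1154. Npm1, nucleophosmin, whose probe set also lists LOC100046628, and the helicase gene Ddx21 rose by 0.91 and 1.24 at 12 h on the log2 scale.

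All 11 small subunit factors rose over the LPS times on the PLIER values (median 1.32). On the GAPDH-normalized values their median was 0.36, with 7 called higher and 2 lower (8.37% and 69.3% of all genes). They include components of the large complex that forms on the nascent RNA (Heatr1, Utp15, Wdr43, Utp18, Tbl3, Utp20), later assembly factors (Noc4l, Bysl, Rrp12, Ltv1), and Nob1, the endonuclease that makes the mature end of the small subunit RNA. Noc4l changed most, with PLIER values of 53.2, 313, 236, 211 and 162 in WT cells and 47.5, 261, 272, 202 and 157 in RasGRP4-null cells, every LPS array at least 3 times the 0 h value of its genotype (log2 change 1.84, standard error 0.11, adjusted p = 1.51e-07, or 0.97 on the GAPDH-normalized values). Like Tbl3, Bysl and Rrp12, however, Noc4l passed the filter only through its LPS arrays. Utp18 changed least (log2 change 0.44, standard error 0.10, adjusted p = 0.00335, or -0.57 on the GAPDH-normalized values). Its values were 199.6, 364, 244, 218 and 209 in WT cells and 156, 341, 251, 195 and 189 in RasGRP4-null cells, and from 36 h on they overlapped those of the untreated cells. Tbl3 and Bysl rose from 34.6 and 43.6 in untreated WT cells to 254 and 281 at 12 h, the Tbl3 value of 0 h being below background. Nob1 had values of 137, 474, 377, 396 and 355 in WT cells and 143, 381, 369, 389 and 296 in RasGRP4-null cells, the highest RasGRP4-null value being that of 36 h and the 48 h values 0.749 and 0.778 of those at 12 h.

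All 11 large subunit factors rose as well on the PLIER values (median 1.10). On the GAPDH-normalized values their median was 0.16, with 3 called higher and 4 lower (8.37% and 69.3% of all genes). Nop2, a methyltransferase of the large subunit RNA, had the largest change of all 40 genes on the log2(PLIER value + 16) scale, though not on the GAPDH-normalized values, with PLIER values of 137, 1199, 588, 469.8 and 399 in WT cells and 161, 761, 725, 540.0 and 384 in RasGRP4-null cells (log2 change 1.89, standard error 0.16, adjusted p = 2.15e-06, or 0.90 on the GAPDH-normalized values). In WT cells it was 8.76 times its 0 h value at 12 h, and 4.74 times in RasGRP4-null cells. Rrs1, which helps to bring the 5S particle into the subunit, changed least (log2 change 0.53, standard error 0.12, adjusted p = 0.00282, or -0.33 on the GAPDH-normalized values). Its values were 48.7, 137, 72.1, 52.9 and 53.9 in WT cells and 39.5, 95, 82.1, 52.4 and 49.2 in RasGRP4-null cells, and both genotypes were close to their 0 h level from 36 h on. Rrs1 passed the filter only through its LPS arrays. Pes1, Bop1 and Wdr12 form 1 complex, yet they differed in the size of the change, 0.90, 1.79 and 1.58 at 12 h. Wdr74 had values of 145, 764, 507, 563 and 506 in WT cells and 141, 498, 540.3, 509.9 and 504 in RasGRP4-null cells. Apart from the WT array of 12 h its LPS arrays stayed between 498 and 563, over 3 times the untreated level. The remaining genes of the group, Nop16, Noc2l, Noc3l, Ppan and Nip7, rose at 12 h by 1.06 (Nip7) to 1.90 (Nop16) on the log2 scale.

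**Figure D2:**
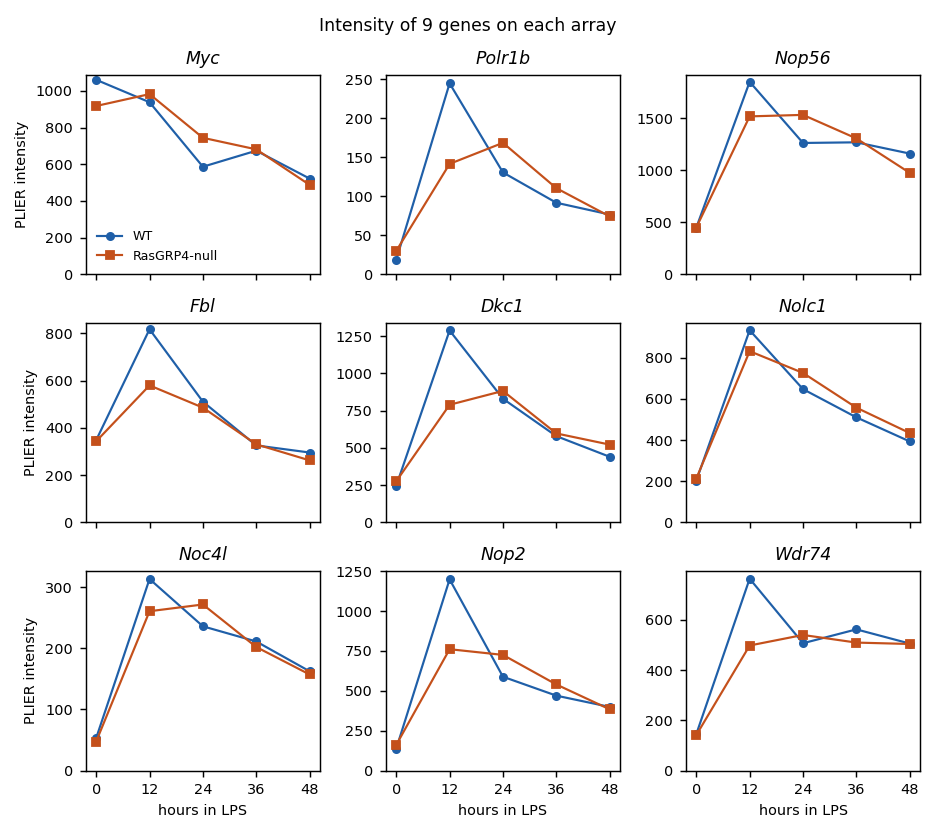
PLIER intensity of 9 genes on each array against hours in LPS, WT (circles) and RasGRP4-null (squares), 1 array per point. The 12 h values exceed both 0 h values in all panels but Myc (on the GAPDH-normalized values the 12 h change of Fbl was -0.03). The WT point of 12 h is likewise the highest in all panels but Myc, and all LPS points of Wdr74 lie above both 0 h points.

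The late fall held on every scale. The arrays of 36 and 48 h were set against those of 12 and 24 h, a comparison that does not use the untreated cells. All 40 genes had a negative change, 38 were called lower and none higher (10.3% of all genes were called lower, 16.3% higher), with a median of -0.67 against 0.03 for all genes. On the GAPDH-normalized values 38 were called lower with a median of -0.68 (7.03% of all genes), after quantile normalization 38 (12.1%), and relative to Actb 34 (6.15%). For 33 members every array of 36 and 48 h lay below every array of 12 and 24 h, which held for 10.1% of all genes. With any 1 array left out 35 to 38 members were called lower (5.7% to 10.7% of all genes). The largest falls were those of Rrp9 (log2 change -1.14, standard error 0.15, adjusted p = 0.000505), Nop16 (log2 change -1.07, standard error 0.11, adjusted p = 0.000184) and Mybbp1a (log2 change -0.99, standard error 0.11, adjusted p = 0.000232). Those that were not called lower were Wdr74 (log2 change -0.12, standard error 0.12, adjusted p = 0.493) and Nob1 (log2 change -0.15, standard error 0.10, adjusted p = 0.292); these genes, like the large falls, were singled out after their values had been seen. Between 12 and 48 h the PLIER values of the 39 factors changed to 0.196 to 0.749 of the 12 h value in WT cells (median 0.438) and to 0.328 to 1.01 in RasGRP4-null cells (median 0.555). With both 12 h arrays left out, an alternative chosen after seeing the data, 25 members were still called lower at 36 and 48 h than at 24 h (4.54% of all genes), with a median of -0.47.

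**Figure D3:**
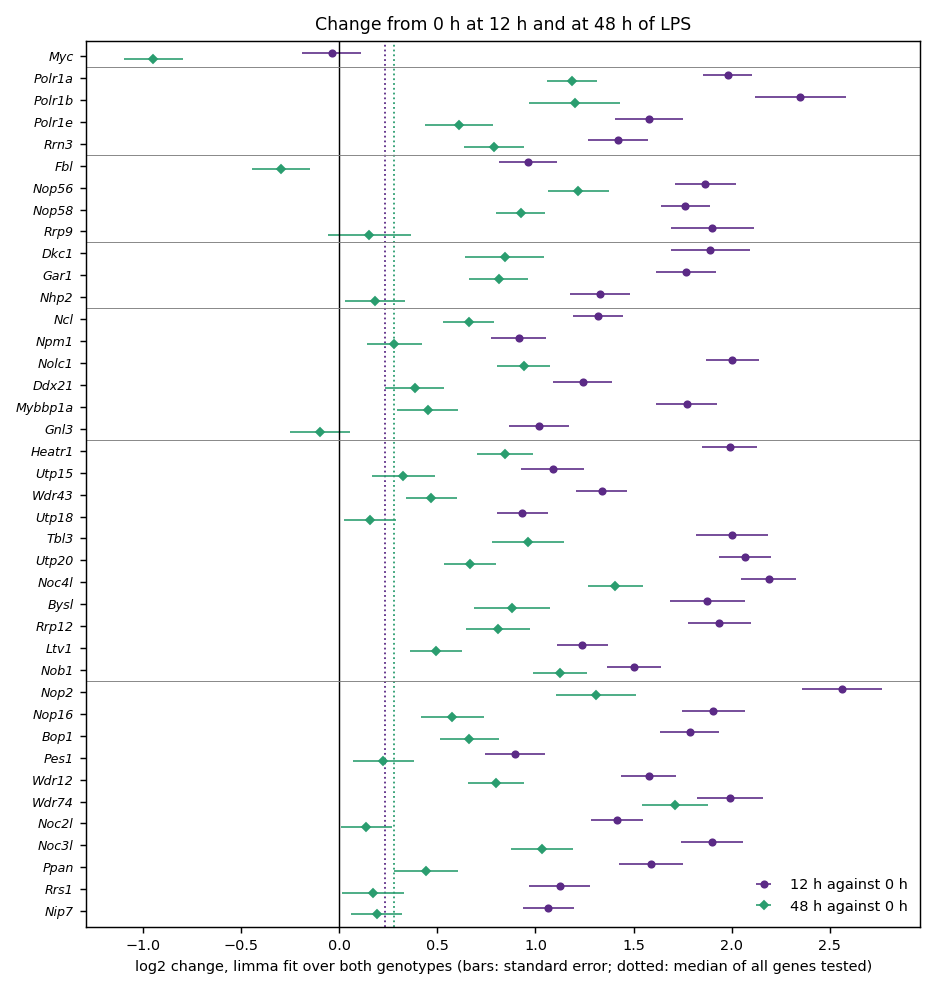
Log2 change of each gene from 0 h at 12 h (circles) and at 48 h (diamonds) in the limma fit over both genotypes, with standard errors; dotted lines mark the median of all genes tested (0.23 and 0.28). Every gene has its 12 h point to the right of its 48 h point, with Wdr74 and Nob1 closest. On the GAPDH-normalized values 27 of the members that are right of 0 at 48 h lie left of it, as does the median of all genes (-0.66).

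Genes of the same pathway outside the 40 were taken from lists that share no member with them. Beside the counts of these and the following lists stand the shares of all genes tested. Over the LPS times 48% were called higher and 21.3% lower on the PLIER values, and 8.37% and 69.3% on the GAPDH-normalized values. Late against early, 16.3% were called higher and 10.3% lower on the PLIER values. Of 40 other small subunit factors all 40 were called higher over the LPS times on the PLIER values (median 0.96, or -0.03 on the GAPDH-normalized values), with Wdr46 (2.36), Utp4 (1.99) and Wdr75 (1.65) at the smallest p. Between early and late LPS 29 of the 40 fell and 1, the helicase gene Ddx52, rose (0.39). Of 42 other large subunit factors tested 37 were called higher and none lower (median 0.79, or -0.15 on the GAPDH-normalized values), with Rpf2 (1.51), Pwp1 (1.25) and Ftsj3 (1.67) at the smallest p, and 26 fell late while 2 rose, Nop53 (0.46) and Nsa2 (0.28). All 9 snoRNP assembly factors and other core proteins were called higher (median 0.67, or -0.25 on the GAPDH-normalized values) and 8 fell late. In the list of RNase MRP and the exosome, which process and trim the precursor, 18 of 20 were called higher, Exosc6 (2.28), Rpp38 (1.74) and Dis3 (1.67) at the smallest p, and 12 fell late. The median of that list was 1.07, and 0.08 on the GAPDH-normalized values, with 4 higher and 4 lower.

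The remaining lists hold polymerase subunits, ribosomal proteins and genes around MYC. Of 15 other RNA polymerase I subunits and factors 9 were called higher and 1 lower, from Tcof1, the treacle protein (1.80), to Taf1d, a subunit of its promoter selectivity factor (-0.79), and 5 fell late. Their median was 0.52, and -0.40 on the GAPDH-normalized values. RNA polymerase III, which makes 5S ribosomal RNA and transfer RNA, had 17 of 21 genes called higher and 1, Polr3gl, lower (-0.45), with a median of 0.56 that was -0.42 on the GAPDH-normalized values. Late, 4 of them fell and 1 rose, with a median of -0.03. The cytosolic ribosomal proteins themselves had a median of 0.12 over the LPS times, with 20 of 70 called higher and 8 lower (-0.93 on the GAPDH-normalized values, with 0 higher and 65 lower), and 5 fell late. The probe sets of 44 of these 70 genes list several symbols, among them pseudogenes, so single values in this list are uncertain; the lowest was Rps2 (-3.30). Among 16 other growth genes known as MYC targets 14 were called higher and 1 lower (median 1.29, or 0.33 on the GAPDH-normalized values), with Shmt2 (3.20) and Ccnd2 (2.66) at the smallest p and Eif4a1 lower (-0.73), and 10 fell late. In the network around MYC, Mycl (-1.81), Mnt (-1.30) and Mxd4 (-1.13) were called lower while Max, Mga, Mxd1, Mxi1, Mlx and Mlxip were called higher by 0.34 to 0.91, none of which stayed above 0 on the GAPDH-normalized values.

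**Figure D4:**
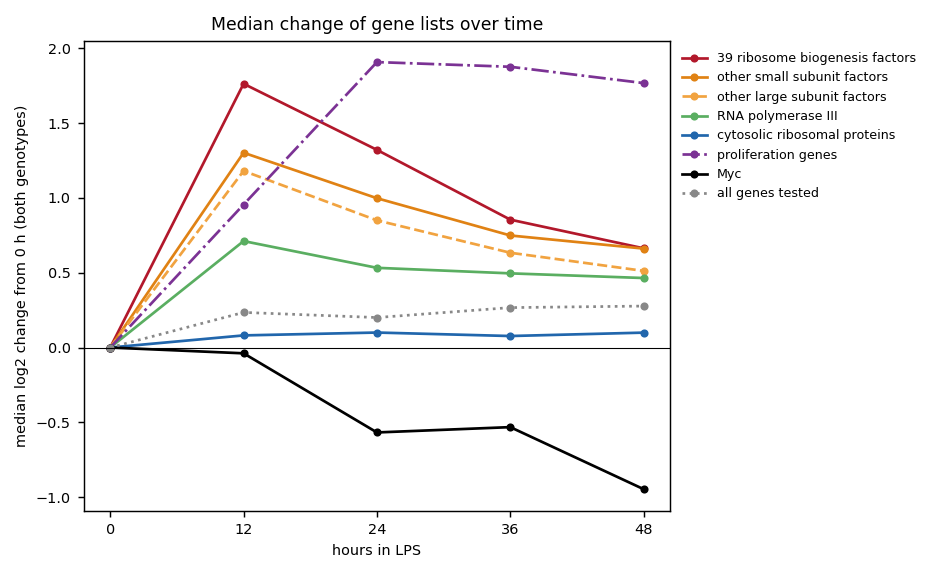
Median log2 change from 0 h of gene lists at each time point (PLIER values, limma fit over both genotypes), with Myc and the median of all genes tested. The factors peak at 12 h (1.76 for the 39 without Myc) and decline, proliferation genes peak at 24 h and stay high, and cytosolic ribosomal proteins stay near the median of all genes. On the GAPDH-normalized values the factors, the other subunit factors and RNA polymerase III are below 0 at 48 h, as is the median of all genes (-0.66).

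Other cell types and the cell cycle moved with these comparisons. Macrophage and monocyte markers were lower after LPS in 9 of 10 genes, Ly6c2 being higher, and their summed PLIER level went from 16118 and 17566 at 0 h to 1419 to 2670 afterwards, with Csf1r and C1qc at or below background on all LPS arrays. All 7 neutrophil markers tested were lower (summed level of the 8 listed 4938 and 8211 at 0 h, 112.7 to 762 after LPS; Ly6g, Elane, Mpo, Ltf and Camp at or below background). Erythroid precursor markers were lower in 4 of 5. Dendritic cell markers were lower in 6 of 8 and higher in 2, with Zbtb46 (0.74) and Bst2 (1.78) called higher at 48 h. Of the 8 B cell markers 2 were higher and 3 lower (all 8 lower on the GAPDH-normalized values). Mast cell markers were higher in 3 of 4 and lower in none (median 0.62, or -0.15 on the GAPDH-normalized values, with 0 higher and 1 lower), T cell markers were lower in 3 of 5, NK cell markers higher in 2 and lower in 2 of 5, and plasma cell markers higher in 2 and lower in 1 of 3. No marker was at a value of 0. All 18 proliferation genes were called higher over the LPS times (median 1.57, or 0.68 on the GAPDH-normalized values, with 14 higher and 1 lower), with a summed level of 2886 and 2900 at 0 h and 5144 to 10338 after LPS. The part of these shifts in the rise of the ribosome biogenesis factors was not tested, and in a bulk sample fewer cells of a type cannot be told apart from less RNA per cell. Between early and late LPS the macrophage list moved little (3 lower, 1 higher of 10), 3 of 7 neutrophil markers were lower, 4 of 8 B cell, 2 of 5 T cell, 2 of 5 NK cell and 2 of 4 mast cell markers were higher, and proliferation genes went the other way from the factors, with 11 higher and 1 lower.

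No difference between the genotypes was called for any of the 40 genes. Over the 5 time points the RasGRP4-null minus WT difference ran from -0.17 (Ltv1) to 0.14 (Ppan), with 95% intervals that reached from -0.42 to 0.37, and the smallest adjusted p was 0.583 (limma); 30 genes of all tested (0.243%) were called, and no member had an unadjusted p under 0.05. The smallest p belonged to Ltv1, a late assembly factor (log2 change -0.17, standard error 0.08, adjusted p = 0.583), and Utp18 (log2 change -0.13, standard error 0.08, adjusted p = 0.707). Ltv1 had PLIER values of 174, 464, 299, 315 and 254 in WT cells and 167, 388, 278, 243 and 239 in RasGRP4-null cells, lower in RasGRP4-null cells at all 5 times by less than the change over time. For the genotype by LPS interaction the members ran from -0.46 (Polr1b) to 0.57 (Rrp9), with intervals from -1.24 to 1.23, none with an unadjusted p under 0.05 and 0.138% of all genes called. The smallest p were those of Rrp9 (log2 change 0.57, standard error 0.30, adjusted p = 0.72) and Noc3l (log2 change 0.42, standard error 0.22, adjusted p = 0.745). The values of Rrp9 were 72.3, 311, 129.7, 86.1 and 60.9 in WT cells and 43, 206, 154, 99.5 and 67.8 in RasGRP4-null cells, and those of Noc3l, a factor of the large subunit, were 90, 354, 211, 185 and 166 in WT cells and 64.3, 304, 244, 183 and 179.6 in RasGRP4-null cells; in both genes the RasGRP4-null cells were lower at 0 h and higher at 24 h. The intervals of the interaction are wide, so a difference of the size of the LPS change of several members could not have been seen.

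At 12 h, with 1 array per genotype and hence no replicate check, 34 of the 40 genes were lower in RasGRP4-null than in WT cells on the PLIER values, where 50.4% of all genes were lower. The median difference was -0.28 for the members and -0.003 for all genes. The same count was 34 after quantile normalization (52.6% of all genes) and 39 relative to Actb (63.7%), but 15 on the GAPDH-normalized values (12.1%). On that last scale the median was 0.10 for the members and 0.34 for all genes. The largest differences were those of Polr1b, Dkc1 and Nop2, whose values are given above, and Myc, Nop58, Polr1a, Gnl3, Utp20 and Ppan were the 6 that were higher in RasGRP4-null cells. At the other times the median difference lay between -0.01 and 0.10 on the PLIER values. After quantile normalization it lay between -0.03 (48 h) and 0.06 (24 h). Relative to Actb it ran from -0.09 (36 h) to 0.17 (24 h), and on the GAPDH-normalized values from -0.09 (24 h) to 0.10 (0 h). The 12 h arrays also differed in other lists: all 18 proliferation genes were lower in RasGRP4-null cells (median -0.54), as were 7 of 8 B cell markers (-0.59), while Kit read 179 in WT cells against 334 in RasGRP4-null cells and all 4 mast cell markers tested were higher (0.49). The part of these in the difference was not tested.

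**Figure D5:**
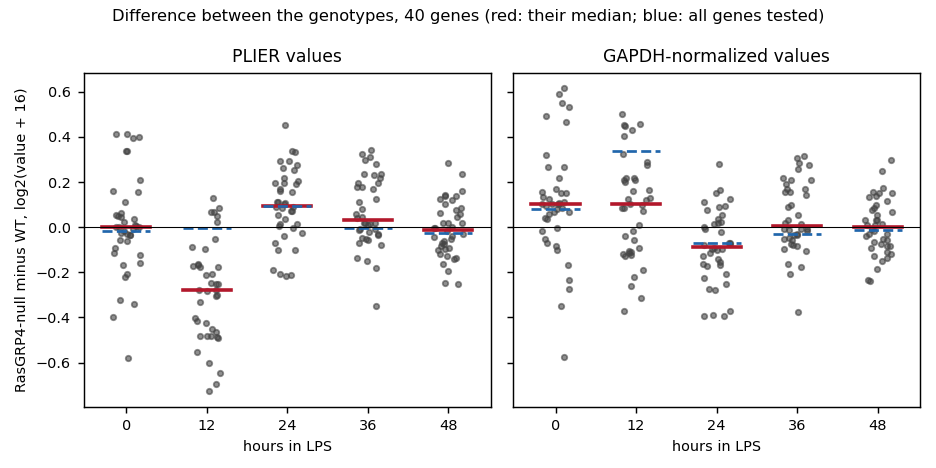
RasGRP4-null minus WT difference on the scale log2(value + 16) at each time point for the 40 genes (points, spread sideways for visibility), with their median (solid bar) and the median of all genes tested (dashed bar), on PLIER values (left) and GAPDH-normalized values (right). At 12 h the median of the members lies below that of all genes on both scales, and it is -0.28 on the left and 0.10 on the right.

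By the fold rule of the methods, which takes a transcript as changed when its GAPDH-normalized value after LPS exceeds 1% of Gapdh and differs over 3.6-fold from 0 h of the same genotype, 2 members were higher in WT cells, Polr1b at 12 and 24 h and Nop2 at 12 h, and 0 in RasGRP4-null cells. Of all genes tested 2.1% and 2.44% were higher by this rule at some LPS time. The untreated WT value of Polr1b was below background (18.5 against 38.3), and with that background in its place its folds were 2.85 and 1.75, under the limit. At 48 h 1 member, Myc, was lower in each genotype, as were 5.18% of all genes in WT and 6.42% in RasGRP4-null cells. With a 2-fold limit 13 members were higher in each genotype (6.41% and 6.71% of all genes), and on the PLIER values at 3.6-fold 21 in WT (8.76%) and 15 in RasGRP4-null cells (8.51%). No test attaches to these counts, which compare single arrays.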

How the data were processed

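CD117+ splenocytes were measured on 10 mouse gene arrays. The deposited intensity values were made by the authors with Affymetrix Expression Console and PLIER (versions and genome build not given in the sources used here); another deposited table, and GEO's own table of values, give them scaled by the authors to GAPDH. The 10 repeated columns of unscaled values in the former were not used. Of 41345 probe sets, 26660 carried 1 symbol, 3066 several and 11619 none. The brightest probe set, by its mean over the 10 arrays, represented each gene. Genes that reached a PLIER value of 50 on 2 or more arrays were tested with limma 3.58.1 in R 4.3.3 on log2(value + 16), for genotype and time and, apart, genotype by LPS, two-sided, with Benjamini-Hochberg adjustment over all genes tested. The fits had 4 and 3 residual degrees of freedom. p-values measure the spread between these arrays, which may be technical, and the number of arrays limits the precision. The scripts were tested on simulated data. Genes named in full are Myc, those with the largest and smallest LPS change in each role, and those with the smallest p for genotype and interaction; from other lists, those with the smallest p or the opposite direction. The members and lists were chosen with earlier results of these data known. Alternatives were other scalings, pseudocounts, filters, probe set rules, a variance trend, each array left out, both 12 h arrays left out and the methods' paired t-test.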

Additional observations from a re-analysis of the deposited data

How the results depend on the processing

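Scaling decided the comparisons with 0 h, and GEO's own table of values gave the same counts as the GAPDH-normalized values. On both, 17 members were called higher and 10 lower over the LPS times (38 and 1 on the PLIER values), 18 and 4 at 24 h (39 and 1 before), 4 and 12 at 36 h (33 and 1) and 3 and 17 at 48 h (28 and 1), and 1 was lower at 12 h (0). On the GAPDH-normalized values 8.37% of all genes were called higher and 69.3% lower over the LPS times, and 61.4% lower at 12 h. At 24, 36 and 48 h 6.74%, 7.24% and 7.94% of all genes were higher and 67.8%, 65.8% and 61.1% lower. Of the changes over the LPS times, 14 turned negative there: Fbl -0.76, Nhp2 -0.24, Ncl -0.10, Npm1 -0.48, Ddx21 -0.29, Gnl3 -0.58, Utp15 -0.31, Wdr43 -0.15, Utp18 -0.57, Ltv1 -0.23, Pes1 -0.50, Noc2l -0.34, Rrs1 -0.33 (-0.32 in GEO's table) and Nip7 -0.45. Quantile normalization called 2 members lower at 48 h (23.8% of all genes). With the mean over probe sets, Nop56 had -1.40, and 2 members were called lower over the LPS times and at each of 24, 36 and 48 h, and 1 at 12 h. In these comparisons 17.6% to 21.1% of all genes were called lower. The fold rule gave 13 members in each genotype at 2-fold, and 21 in WT and 15 in RasGRP4-null cells on PLIER values. The methods' paired t-test called 0 higher and 0 lower, among the members and among all genes tested. Leaving out 1 array at a time gave 36 to 39 higher and 0 to 1 lower over the LPS times, 39 higher at 12 h, 36 to 39 and 0 to 1 at 24 h, 27 to 33 and 0 to 1 at 36 h, 23 to 29 and 1 at 48 h, and 35 to 38 lower late against early. In these fits 29.1% to 48.2% of all genes were called higher against 0 h and 12.8% to 22.2% lower. Late against early, 5.7% to 10.7% of all genes were called lower. The 1 lower gene is Myc, which lost its call over the LPS times when the untreated WT array was left out. The late change of Wdr74 ranged from -0.27 to 0.020, the latter without the WT array of 12 h. With both 12 h arrays out, a setting chosen after seeing the data, 25 members were lower late (4.54% of all genes). The other pseudocounts, the intensity trend and no filter turned no sign of a member, and the filter at 100 left 38 members. The cause of these differences was not tested. The interaction cannot be estimated without a 0 h array. The labels give no replicate numbers, so animals could not be paired. Arrays were matched by time point in the fits for genotype and time. The methods' t-test was paired by genotype for LPS against 0 h, and by time point for RasGRP4-null minus WT. In the latter it called 0 members and 0 of all genes, and 1 member had an unadjusted p under 0.05.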
